A study of Mus musculus with 10 samples.

Results

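The lysosome and V-ATPase genes are 45 genes that were taken from a list of the lysosomal apparatus with the cathepsins left out, and all 45 were found among the 31053 genes of the count matrix. They comprise 9 proteins of the lysosomal membrane, 17 luminal enzymes and activators, 6 subunits of the membrane sector (V0) and 8 subunits of the catalytic sector (V1) of the V-ATPase, 2 accessory subunits of the pump and 3 transcription factors. Their levels were followed across the states of microglia, in border-associated macrophages (BAMs) and the other immune cells of the brain, and in each library.

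The lysosome is the acidic compartment in which cells break down what they take up or recycle. The V-ATPase is the proton pump that acidifies it: the V1 sector splits ATP on the cytosolic side and the V0 sector carries protons into the lumen, where hydrolases such as glycosidases, lipases and proteases work at low pH. Transcription factors of the MiT/TFE family (*Tfeb*, *Tfe3*, *Mitf*) bind a short palindromic element that is common upstream of lysosomal genes, and microglia and macrophages, as phagocytes, are rich in lysosomes.

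Single-cell RNA sequencing was performed on CD45+ cells sorted from the whole brains of WT mice, of Nlrp3KO mice, which lack the inflammasome sensor Nlrp3 in all tissues from the germline on, of APP/PS1 mice, which carry transgenes for mutant APP and mutant PS1 and develop amyloid plaques, and of Nlrp3KO APP/PS1 mice. WT and Nlrp3KO mice (together: non-diseased) were profiled at 3, 6 and 9 months, and both APP/PS1 genotypes at 3 and 9 months. Each of the 10 libraries held the pooled cells of 3 littermates (2 males and 1 female) and was prepared in the presence of actinomycin D, which blocks transcription during dissociation. All mice of a group thus share 1 library, and p-values measure the spread between these pools. The libraries of 1 age form 1 batch in the deposited annotation, and what is due to age cannot be told apart from what is due to batch.

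The 45472 cells used held 40547 microglia, with 9357431 to 35107144 unique molecular identifiers (UMIs, tags of single captured RNA molecules) per library. The authors divided the microglia into homeostatic microglia (HM), transitory microglia (TM), disease-associated microglia (DAM), and interferon-response (IRM), immediate-early gene (IEG) and proliferating (PM) microglia. DAM are known for genes of phagocytosis and lipid handling and were scarce here, with 24 to 253 cells and 160958 to 1659976 UMIs per library. *Nlrp3* had 34.4 to 53.7 CPM (UMIs per 1000000 UMIs of the cells summed) in microglia of the 5 Nlrp3WT libraries and no UMI in the 5 Nlrp3KO libraries. The label of microglia was borne out by its 6 markers, which summed to 23295 CPM in microglia and 1739 CPM in the other cells, and that of BAMs by 7 markers, at 4354 CPM against 8.50 CPM in microglia. Markers of T cells, B cells, NK cells and dendritic cells summed to at most 1.12 CPM each in microglia, although none of these markers was at 0 over all libraries. Those of monocytes summed to 8.90 CPM in microglia and 22.6 CPM in DAM, and those of neutrophils to 8.84 CPM in microglia, with up to 43.0 CPM in 1 non-diseased library. In BAMs the markers of monocytes summed to 965 CPM, most of it *Ccr2* (782 CPM), and those of dendritic cells to 170 CPM. All cells other than microglia, BAMs included, had 1349 and 148 CPM of these. Of 45225 distinct cell barcodes, 246 (0.544%) occurred in more than 1 library. The 2 libraries of 9-month-old mice with intact Nlrp3 (WT and APP/PS1) stood apart: of 9440 genes with at least 1000 UMIs in microglia, 86 were lower in both than in each of the other 8 libraries by over 0.5 on the log2 scale, and 2 were higher. *Lamp1* was the only member among these 86 genes, and its values are therefore given with and without these libraries.

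The promoters of the members are shown first, because some of them hold the letters of the element that the MiT/TFE factors are known to bind. Promoters of 38 of the 45 members were found in the RefSeq table of build GRCm38.p6, which gives 250 bases before and 50 bases after the gene start. The letters TCACGTG, searched on both strands (the reverse complement is CACGTGA), were present in 12 of these 38 members (31.6%) and in 4.29% of the 27025 genes with a promoter in the table. The palindrome TCACGTGA, which holds a match on either strand at once, was present in 6 members (15.8%) and in 1.12% of genes. The 12 members were *Lamp1*, *Lgmn*, *Gaa*, *Gla*, *Glb1*, *Naglu*, *Cln3*, *Mcoln1*, *Atp6v0b*, *Atp6v0d1*, *Atp6v0e* and *Atp6v1a*. The promoters printed here belong to the 4 of them that were higher in DAM of APP/PS1 mice at the adjusted p, as described below; the matches are in capitals and each sequence is written from 5′ to 3′.
*Lamp1*, chr8:13158911-13159210, plus strand: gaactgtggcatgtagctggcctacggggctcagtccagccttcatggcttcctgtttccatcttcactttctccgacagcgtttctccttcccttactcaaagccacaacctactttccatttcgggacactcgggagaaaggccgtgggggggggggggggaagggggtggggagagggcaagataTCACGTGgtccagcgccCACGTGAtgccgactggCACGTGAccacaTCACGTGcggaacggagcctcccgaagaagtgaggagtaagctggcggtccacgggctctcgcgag
*Glb1*, chr9:114400828-114401127, plus strand: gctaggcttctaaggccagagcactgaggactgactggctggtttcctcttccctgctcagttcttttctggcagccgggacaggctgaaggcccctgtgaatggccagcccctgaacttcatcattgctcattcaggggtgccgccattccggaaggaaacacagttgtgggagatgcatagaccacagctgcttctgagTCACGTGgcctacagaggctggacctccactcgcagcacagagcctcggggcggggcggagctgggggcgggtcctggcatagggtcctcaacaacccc
*Naglu*, chr11:101069844-101070143, plus strand: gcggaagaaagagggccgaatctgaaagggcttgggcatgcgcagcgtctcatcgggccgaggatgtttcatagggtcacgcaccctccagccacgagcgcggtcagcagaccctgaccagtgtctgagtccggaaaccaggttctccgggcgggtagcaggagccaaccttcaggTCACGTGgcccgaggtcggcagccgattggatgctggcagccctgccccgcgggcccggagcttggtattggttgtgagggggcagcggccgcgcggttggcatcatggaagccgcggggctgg
*Atp6v0e*, chr17:26676146-26676445, plus strand: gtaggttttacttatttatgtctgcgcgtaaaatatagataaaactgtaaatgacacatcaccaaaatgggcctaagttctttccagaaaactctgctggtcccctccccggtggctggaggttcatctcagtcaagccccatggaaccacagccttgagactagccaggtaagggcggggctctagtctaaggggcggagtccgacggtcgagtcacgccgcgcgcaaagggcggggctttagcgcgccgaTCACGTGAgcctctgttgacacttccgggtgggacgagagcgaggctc

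*Lamp1* held 4 matches, the most of any member, whose shared letters CACGTG began within 61 bases before its start, and the other 3 promoters printed held 1 each. The start used for *Atp6v0e* in the table lies 13165 bases inside the gene as annotated, so its window is not at the first start of that gene, and that used for *Naglu* lies 82 bases inside. A match describes letters in this window and is not evidence of binding.

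The first question was how much of the RNA of each state the members make up. Over all microglia they accounted for 1.91% of UMIs, and *Lgmn*, the asparaginyl endopeptidase legumain, held 20.2% of the members' UMIs. The summed level of the 45 members differed little between the states of microglia: over the 10 libraries its mean was 18725 ± 486 CPM in HM (SD, n = 10), 19437 ± 734 CPM in TM and 20084 ± 1809 CPM in DAM, whereas in BAMs it was 13050 ± 497 CPM. TM lay above HM in 10 of 10 libraries and DAM above TM in 8 of 10. The 2 exceptions were the WT and Nlrp3KO libraries at 9 months, in which DAM had 17887 and 17580 CPM and HM 18360 and 18082 CPM. States are the authors' clusters of these same cells, so ratios between states describe the clusters and carry no test.

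Within a library, the summed level in DAM relative to HM was 0.10 ± 0.10 on the log2 scale (1.07-fold, SD, n = 10). This ratio was 0.18 ± 0.10 in the 4 APP/PS1 libraries (higher in 4 of 4) and 0.04 ± 0.06 in the 6 non-diseased libraries (higher in 4 of 6). *Lgmn* weighed on the sum, since it had 3924 CPM in HM and 2716 CPM in DAM over all libraries. Without *Lgmn* the ratio of DAM to HM was 0.18 ± 0.14, and positive in 10 of 10 libraries. It was then 0.33 ± 0.12 in the APP/PS1 libraries and 0.09 ± 0.05 in the non-diseased ones. TM exceeded HM by 0.05 ± 0.02 on the log2 scale with the states of the microglia annotation, and by 0.01 with those of the annotation of all CD45+ cells. DAM had 3.96% mitochondrial UMIs at the median cell against 2.81% in HM, and 5726 against 4366 UMIs per cell. Without ribosomal protein and mitochondrial genes in the total, the ratio of DAM to HM was 0.17 ± 0.14 (higher in 9 of 10 libraries), and with the states of the annotation of all CD45+ cells it was 0.16 ± 0.09 (10 of 10).

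The sums by role gave different ratios. The 9 membrane proteins summed to a level 0.20 ± 0.08 higher in DAM than in HM on the log2 scale, in 10 of 10 libraries. The 17 luminal enzymes and activators were 0.13 ± 0.03 higher in TM than in HM (10 of 10 libraries) and 0.08 ± 0.14 higher in DAM (8 of 10). *Lgmn* weighed most on that role, and without it, an alternative chosen after seeing the data, the other 16 were 0.25 ± 0.04 higher in TM (10 of 10) and 0.27 ± 0.23 higher in DAM (9 of 10). The 16 subunits of the V-ATPase had a ratio of TM to HM of -0.11 ± 0.03 (higher in 0 of 10 libraries) and of DAM to HM of -0.01 ± 0.12 (higher in 5 of 10). In IEG their ratio to HM was 0.24 ± 0.09 (higher in 10 of 10), with all UMIs as the total. The direction in TM depended on the total for the pump and for the membrane proteins. TM had 13.3% ribosomal UMIs at the median cell and HM 8.08%, and the median ratio of TM to HM over all genes was -0.21. Without ribosomal protein and mitochondrial genes, a total chosen for the roles after seeing the data, the ratio of the V-ATPase subunits was 0.00 ± 0.03 (higher in 5 of 10). On that total the parts of the pump differed. The V1 sector was higher in 9 of 10 (0.07 ± 0.05), the V0 sector in 2 of 10 (-0.02 ± 0.03) and the accessory subunits in 1 of 10 (-0.09 ± 0.07). The membrane proteins had a ratio of TM to HM of -0.02 ± 0.04 (higher in 3 of 10) with all UMIs as the total and of 0.09 ± 0.03 (higher in 10 of 10) with the other total. A change of total moves all roles of a library by the same amount. In the APP/PS1 libraries the subunits were higher in DAM than in HM in 4 of 4 libraries (0.10 ± 0.08), and in the non-diseased libraries they were higher in 1 of 6 (-0.08 ± 0.08). The sum of the 3 transcription factors, most of it *Tfe3*, was lower in DAM than in HM in 9 of 10 libraries (-0.42 ± 0.32). Its ratio was -0.72 ± 0.09 in the APP/PS1 libraries and -0.22 ± 0.26 in the non-diseased ones. *Mitf* taken singly was higher in 6 of 10 (0.02 ± 0.38).

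**Figure D1:**
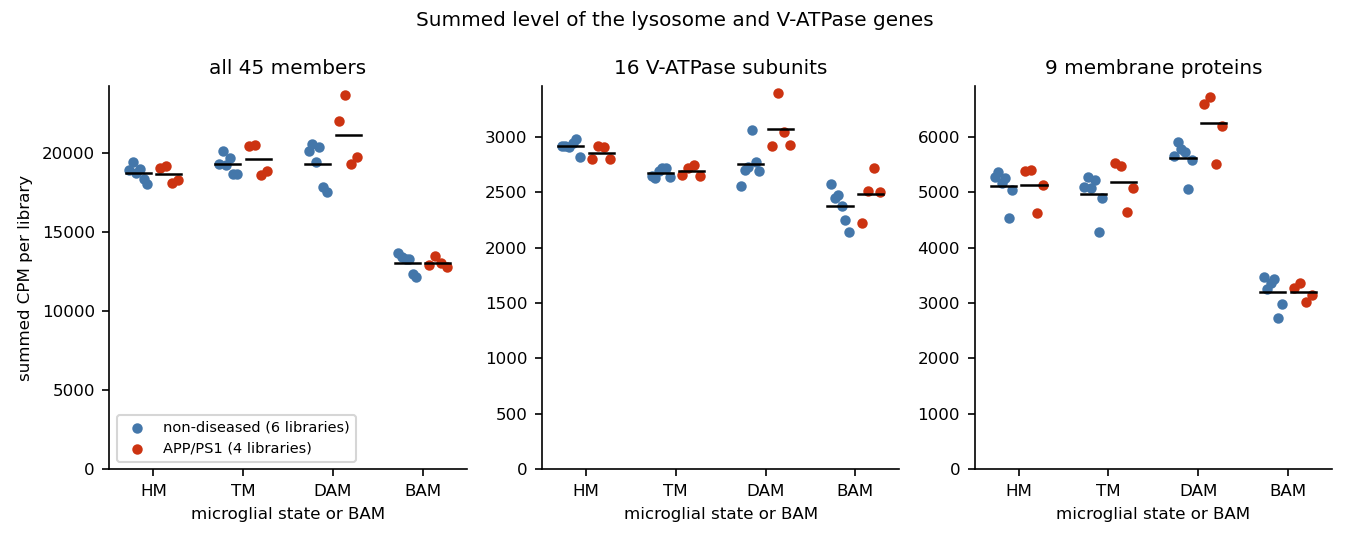
Each point is the summed CPM of 1 library in HM, TM, DAM or BAM, for all 45 members, for the 16 V-ATPase subunits and for the 9 membrane proteins, and black lines are the means of the 6 non-diseased (blue) and 4 APP/PS1 (red) libraries. BAMs lie at 12146 to 13657 CPM over all members, below every microglial point, and the V-ATPase subunits of TM lie below those of HM in every library on this scale, but in only 5 of 10 without ribosomal protein and mitochondrial genes in the total.

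Of the 44 members counted in DAM and HM with at least 500 UMIs together, 1 was past a 2-fold mean ratio, and upward, in a background where 1.18% of 9976 genes were past 2-fold upward and 1.19% downward. It was *Gla*, alpha-galactosidase A, whose lack causes Fabry disease, with 61 UMIs in DAM (10.5 CPM) and 469 in HM (3.20 CPM). Its level in DAM was 0 CPM in WT mice at 3 months, where a count of 0 allows up to 18.6 CPM, and 4.74 to 19.6 CPM in the other libraries. With so few UMIs, the ratio (1.79 ± 0.91 on the log2 scale, higher in 9 of 10 libraries) was poorly determined, and *Gla* was under the 500-UMI minimum when any 1 of 8 libraries was left out.

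Of the 44 members, 8 were higher in DAM than in HM in at least 9 of 10 libraries (background 5.51%) and 5 were lower (background 15.0%). The 4 that were higher in every library were *Npc2*, the luminal carrier that hands cholesterol to Npc1 (0.67 ± 0.48), *Hexa*, the alpha subunit of beta-hexosaminidase (0.50 ± 0.30), *Gaa*, the acid glucosidase that degrades glycogen (0.48 ± 0.20), and *Atp6v1c1*, the C subunit of the V1 sector (0.42 ± 0.24). *Lgmn* (-0.34 ± 0.26) and *Tmem106b*, a membrane protein linked to frontotemporal dementia (-0.33 ± 0.22), were lower in every library. The median ratio of the members was 0.03 on the log2 scale, against -0.20 over all 9976 genes. In TM, 7 members were higher and 13 lower in at least 9 of 10 libraries (background 6.24% and 37.8%). *Npc2* (0.53 ± 0.05), *Psap*, the precursor of the saposins (0.43 ± 0.05), *Man2b1*, the lysosomal alpha-mannosidase (0.35 ± 0.07), and *Lamp1*, the major glycoprotein of the lysosomal membrane (0.33 ± 0.06), were among those higher in every library. The microglia labelled IEG, a state known as a response to tissue dissociation, held the highest summed level of the 6 states (21220 CPM over all libraries), and 27 of 44 members were higher there than in HM in at least 9 of 10 libraries (background 14.3%), with 2 lower (background 22.1%). In the APP/PS1 libraries the summed ratio to HM was 0.168 for IEG and 0.178 for DAM. The median IEG cell had 5408 UMIs and 3.52% mitochondrial UMIs, against 4366 and 2.81% in HM. Doublet scores over 0.5 were held by 273 of 2094 IEG and 2030 of 31953 HM cells. The part of these measures in the ratios was not tested. *Cd68* had 1132 CPM in IEG and 706 CPM in HM, and *Lamp1* 1277 and 1004 CPM.

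**Figure D2:**
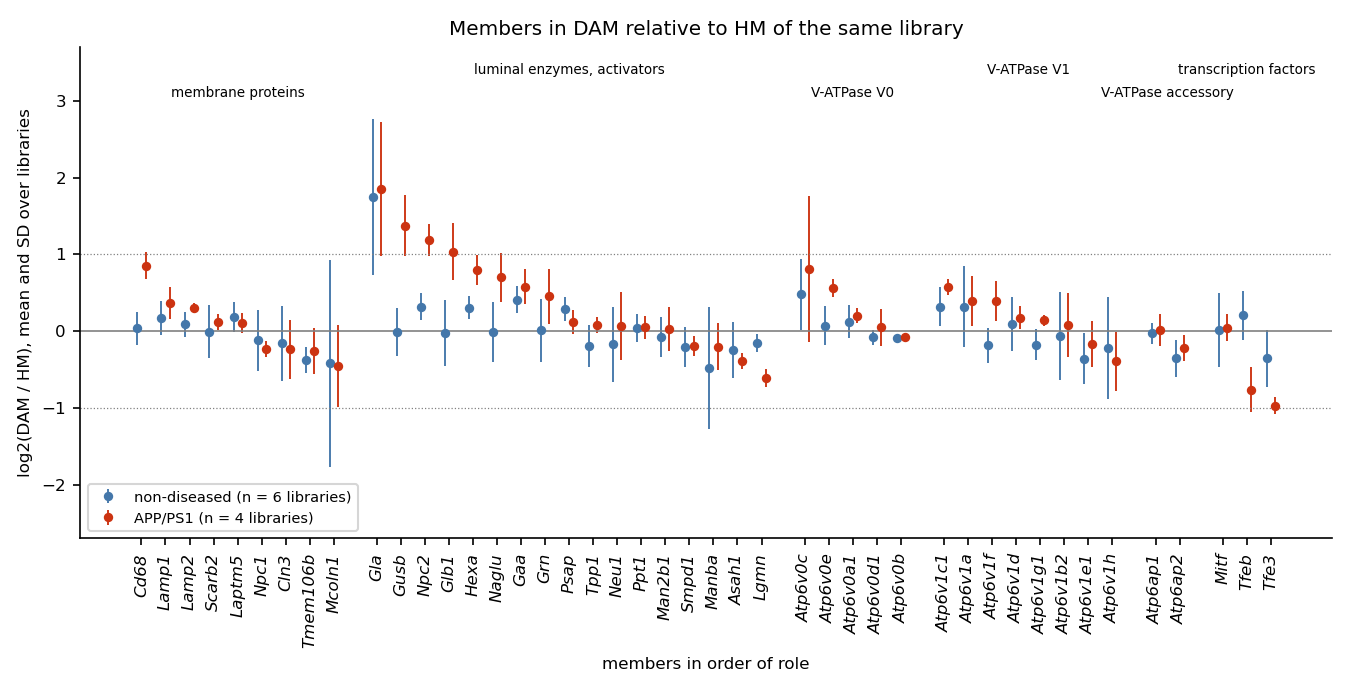
For each of the 44 members counted, the log2 ratio of DAM to HM within a library is given as mean and SD over the 6 non-diseased (blue) and the 4 APP/PS1 (red) libraries, grouped by role, with dotted lines at 2-fold. *Gusb*, *Npc2* and *Glb1* lie past 2-fold in the APP/PS1 libraries (1.37, 1.19 and 1.04) and at 0.32 or less in the non-diseased libraries, whereas *Tfe3*, *Tfeb* and *Lgmn* have the 3 lowest means of the APP/PS1 libraries.

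BAMs are the macrophages of the meninges, perivascular spaces and choroid plexus. Their summed level was 0.52 ± 0.04 lower than that of HM on the log2 scale (0.697-fold, lower in 10 of 10 libraries), and 0.32 ± 0.04 lower without *Lgmn*. The 2 main labels within BAMs differed: the ratio to HM was -0.69 for the cells labelled BAM (725 cells) and -0.19 for those labelled BAM Lyve1 (382 cells). The other 2 of the 1109 cells were labelled BAM prolif. Ribosomal UMIs at the median cell were 15.4% in BAMs, 18.4% in the label BAM, 10.8% in BAM Lyve1 and 8.08% in HM. No total without ribosomal protein and mitochondrial genes was used for BAMs. The part of the ribosomal share in these ratios was not tested. Of 44 members, 8 were past 2-fold lower in BAMs (background 18.2%) and none was past 2-fold higher (background 5.76%). The share of members that was lower was thus about that of all genes. Without the Nlrp3KO library at 6 months 7 were past 2-fold lower, *Smpd1* no longer being so, and with a prior count of 2 *Gla* was past 2-fold higher. Most genes were lower in BAMs than in HM on this scale: 26 members (background 51.9%) were lower in at least 9 of 10 libraries and 5 members (background 13.4%) were higher, and the median ratio was -0.35 for the members and -0.46 for all genes.

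The largest of these ratios was that of *Lgmn*. It had 860 to 1321 CPM in BAMs (median 1174) and 3531 to 4113 CPM in HM (median 3902), and the ranges did not overlap. *Laptm5*, a membrane protein of lysosomes in blood-derived cells, had 1046 to 1175 CPM in BAMs and 2290 to 2514 CPM in HM, also without overlap. These members were picked for a mean ratio past 2-fold lower in BAMs, which by itself makes separate ranges likely. The share of all genes with separate ranges was not counted, so the lack of overlap does not set the members apart. The other 6 had at most 123 CPM in any library of BAMs, and none overlapped with HM. They were *Npc1*, the membrane partner of Npc2 in cholesterol export (at most 78.2 CPM against at least 133 CPM in HM), *Naglu*, which degrades heparan sulfate (a ratio of -1.42 ± 0.36 on the log2 scale), *Smpd1*, the acid sphingomyelinase (-1.18 ± 0.74, with 5.78 to 38.9 CPM against 42.3 to 52.0 CPM), *Scarb2*, the receptor that carries glucocerebrosidase to the lysosome (-1.06 ± 0.24), *Tmem106b* (-1.17 ± 0.29) and *Atp6v1c1* (-1.26 ± 0.28). *Npc2* went the other way: it had 1122 to 1279 CPM in BAMs (median 1169) and 665 to 759 CPM in HM (median 720), a ratio of 0.71 ± 0.08, higher in 10 of 10 libraries. The 2 partners in cholesterol export thus lay on opposite sides of HM. In the cells labelled BAM Lyve1 alone, 3 of 43 members were past 2-fold lower (*Lgmn*, *Naglu*, *Laptm5*; background 10.5%) and 2 higher (background 5.01%), *Atp6v0a1* and *Atp6v1a*, subunits of the V0 and the V1 sector, which is no larger a share than among all genes.

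The summed level of monocytes (Mono) overlapped with that of the cells labelled BAM, lay below that of BAM Lyve1, and was higher than that of cDC2 and lymphoid cells. Monocytes had 11156 to 13617 CPM in the 5 libraries with at least 10 of them, the label BAM 11033 to 12540 CPM and BAM Lyve1 14576 to 17336 CPM in 10 libraries, and cDC2 at most 8764 CPM in any library. In the annotation of all CD45+ cells, types with at least 100 cells ranged in summed level from 21491 CPM in IEG and 20431 CPM in DAM to 11459 CPM in monocytes, 7471 CPM in cDC2, 4078 CPM in B cells, 3477 CPM in T cells and 2831 CPM in NKT cells. The pump differed less than the whole list: V-ATPase subunits had 2906 CPM in HM and 1214 CPM in T cells, while all members together had 19002 and 3477 CPM. The pump subunits did not share this evenly. *Atp6v0e* had 264 CPM in T cells and 253 CPM in HM, whereas *Atp6v0b* had 141 and 979 CPM and *Atp6ap2*, an accessory subunit known as the prorenin receptor, 41.4 and 288 CPM. Of the 44 members that reached 10 CPM in any of the 17 labels with at least 100 cells, 9 were highest outside microglia and BAMs (background 53.9%), among them 6 of 15 pump subunits. *Psap* reached 2963 CPM in monocytes and 1636 CPM in HM, *Tfeb* 73.6 CPM in nonclassical monocytes (Mono NC) and 28.1 CPM in HM, and *Atp6v1b2*, the brain and leukocyte form of the B subunit, 182 CPM in monocytes and 77.1 CPM in HM. *Atp6v0d2*, the d2 form of the V0 sector known from osteoclasts and dendritic cells, had no UMI in any microglial state and 1 UMI in BAMs, whereas its partner form *Atp6v0d1* had 82.6 to 102 CPM in microglia of the 10 libraries.

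**Figure D3:**
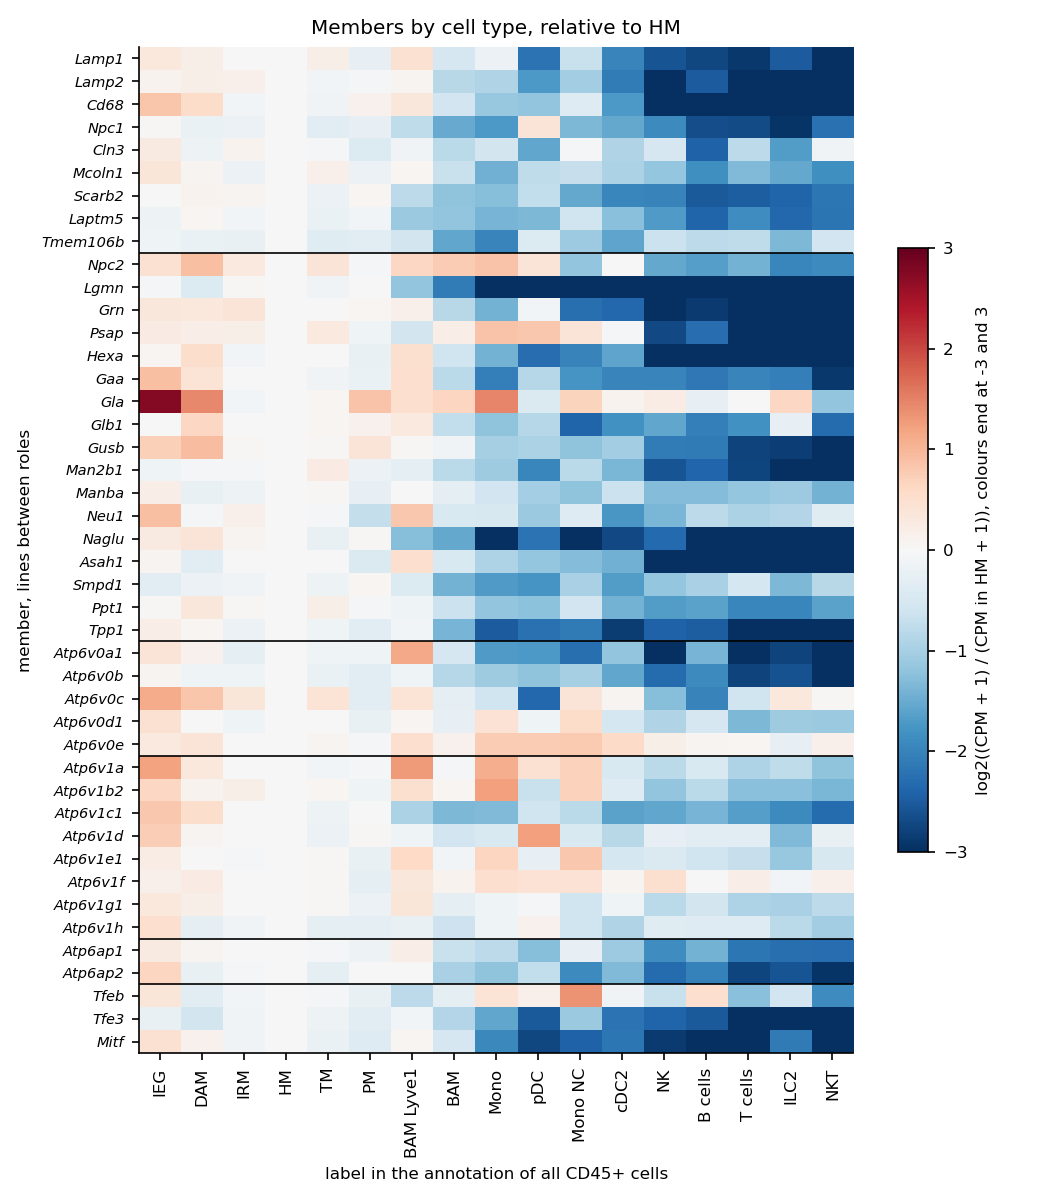
The colours give the log2 ratio of CPM + 1 in each label with at least 100 cells to CPM + 1 in HM, over all libraries together, for the 44 members with a UMI in microglia, with lines between the roles. Luminal enzymes such as *Lgmn* and *Naglu* are blue in all labels to the right of the microglial states, as are the pump subunits *Atp6v0b*, *Atp6ap1* and *Atp6ap2* in the lymphoid labels on the right, while *Atp6v0e* and *Atp6v1f* stay near the level of HM there.

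The next question was whether the levels differed between APP/PS1 and non-diseased mice of the same age and Nlrp3 genotype, in 4 pairs of libraries, with edgeR's quasi-likelihood test, Benjamini-Hochberg adjustment over all genes, and a call at an adjusted p under 0.05 and a 2-fold change. In all microglia together, none of 44 members was called (background 0.0407%, 5 of 12282 genes), 2 had an unadjusted p under 0.05, and DESeq2 called none. *Gusb* had 254 to 352 CPM in APP/PS1 and 237 to 268 CPM in non-diseased mice and *Npc2* 727 to 990 CPM and 710 to 818 CPM, with overlap. The largest changes were those of *Lamp1* (0.27 ± 0.12, SE; 0.10 when the 9-month pair with intact Nlrp3 was left out), *Gusb* (0.26 ± 0.10) and *Npc2* (0.18 ± 0.08), with adjusted p between 0.62 and 0.67 by edgeR. In HM alone, none of 44 members was called (background 0%, 0 of 11887 genes, of which 544 had an unadjusted p under 0.05), none had an unadjusted p under 0.05, and DESeq2 called no gene either.

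In DAM the picture was different. Of 41 members tested, 4 were called, all of them higher in APP/PS1 (background 2.87%, and 2.42% for higher genes, of 6331 genes). They were *Gusb*, beta-glucuronidase, *Npc2*, *Glb1*, the acid beta-galactosidase, and *Cd68*, the glycoprotein macrosialin used to stain phagocytes. Of the 41 members, 36 had a positive change, and the median change was 0.38 on the log2 scale, against -0.03 over all genes tested.

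*Gusb* had 562 and 835 CPM in DAM of APP/PS1 and Nlrp3KO APP/PS1 mice at 3 months, and 525 and 690 CPM at 9 months. In the 6 non-diseased libraries it had 167 to 333 CPM (median 258). The groups did not overlap, and the change was 1.72 ± 0.18 on the log2 scale (SE, adjusted p = 2.7e-07 by edgeR, higher in 4 of 4 pairs). The called members were picked by a test of this difference, which by itself makes separate ranges likely. The share of all genes with separate ranges in DAM was not counted, so the lack of overlap does not set members apart.

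*Npc2* had 1463 and 2005 CPM at 3 months and 1419 and 1690 CPM at 9 months in the same order, and 763 to 1101 CPM (median 873) in the non-diseased libraries, again without overlap (1.12 ± 0.15, adjusted p = 1.4e-05 by edgeR). *Cd68* had 1305 and 1441 CPM at 3 months and 1030 and 1297 CPM at 9 months, against 552 to 859 CPM (median 730), without overlap (1.03 ± 0.15, adjusted p = 4.5e-05 by edgeR). Both were higher in 4 of 4 pairs. *Glb1* had 132 and 156 CPM at 3 months and 96.4 and 108 CPM at 9 months, against 39.2 to 95.7 CPM (median 53.2), so that the lowest APP/PS1 library lay just above the highest non-diseased library, the WT library at 9 months (1.15 ± 0.25, adjusted p = 0.0038 by edgeR). Its CPM was higher in 4 of 4 pairs, but in the 9-month pair with intact Nlrp3 the values were nearly equal, and with 0.5 UMIs added to each count the log2 ratio of that pair was -0.01.

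In HM of the same libraries these 4 genes did not separate. *Gusb* had 234 to 279 CPM in APP/PS1 and 230 to 261 CPM in non-diseased mice, and *Npc2* 665 to 759 CPM and 680 to 759 CPM, so that the groups overlapped. The difference between the states was tested on the ratio of DAM to HM within each library with limma, a test added after the data were seen. This test shares its DAM counts with the fit in DAM and is no independent support of it. It called 4 of 41 members (background 2.24%, and 1.85% for higher genes). The ratio was higher in APP/PS1 by 1.66 ± 0.16 for *Gusb*, 1.27 ± 0.27 for *Glb1*, 1.11 ± 0.12 for *Npc2* and 1.03 ± 0.12 for *Cd68* (log2, SE, adjusted p from 1.9e-06 to 0.0041 by limma). With library size alone, *Gusb* and *Glb1* (1.11) were called (background 1.14% for higher genes). *Npc2* (0.95) and *Cd68* (0.87) then passed the adjusted p but not the 2-fold limit. At the adjusted p alone, 12 members passed, all higher (background 7.38%, and 5.62% for higher genes). With library size alone 8 passed as higher (background 4.09%) and *Lgmn* as lower (-0.43, background 4.69%). *Lamp1*, *Lamp2*, *Tpp1* and *Atp6v0e* were those that no longer passed.

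**Figure D4:**
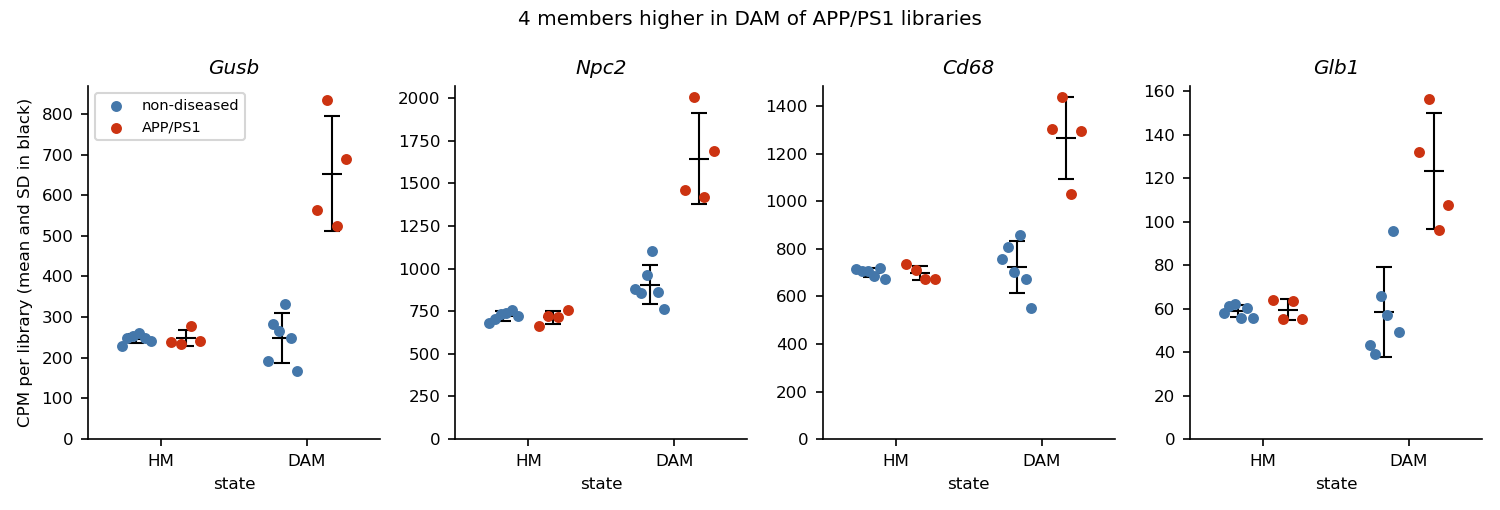
Points are the CPM of 1 library in HM or DAM for *Gusb*, *Npc2*, *Cd68* and *Glb1*, with mean and SD in black for the 6 non-diseased (blue) and 4 APP/PS1 (red) libraries. The colours overlap in HM, and in DAM the red points lie above the blue ones, with *Glb1* at 96.4 CPM in the lowest red and 95.7 CPM in the highest blue library.

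At the adjusted p alone, 12 members were higher in DAM of APP/PS1 mice and none was lower (background 7.61%, and 5.91% for higher genes). With library size alone 8 were higher (background 3.63%) and *Lgmn* was lower (-0.45, background 3.74%). Without the 9-month pair with intact Nlrp3 11 were higher and *Tfe3* was lower (-0.76), where 453 of 5649 genes passed in either direction. Fewer passed without each of the other pairs, all higher. They numbered 8 without the 3-month Nlrp3KO pair (333 of 5865 genes) and 6 without the 9-month Nlrp3KO pair (236 of 4467 genes). Without the 3-month pair with intact Nlrp3 they numbered 6 (274 of 6868 genes). By DESeq2 7 passed, all higher (238 of 6331 genes). Of the 12 that passed with all pairs by edgeR, 8 were not called. They were *Naglu* (0.83 ± 0.19), *Atp6v1f*, the F subunit of the V1 sector (0.74 ± 0.17), *Grn*, progranulin (0.65 ± 0.15), *Hexa* (0.64 ± 0.15) and *Lamp1* (0.60 ± 0.14), with 3 more. These were *Atp6v0e*, the small e subunit of the V0 sector (0.56 ± 0.17), *Tpp1*, a peptidase whose lack causes a neuronal ceroid lipofuscinosis (0.51 ± 0.16), and *Lamp2* (0.46 ± 0.14). Without the 9-month pair with intact Nlrp3, the change of *Lamp1* was 0.46. The F subunit is uncertain, since 18.5% of the 50-base words in its last 500 bases also occur in the gene model AC169506.3. Of the 12 members that passed with all pairs, 4 had the letters TCACGTG in the promoter and 8 did not. Of the 23 other tested members with a known promoter sequence, 6 did. *Gusb*, *Npc2* and *Cd68* were among those without a match.

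None of the 3 transcription factors was called. *Tfeb* had 11.5 to 17.5 CPM in DAM of APP/PS1 mice and 23.9 to 43.5 CPM in non-diseased mice, without overlap, from 92 UMIs in the paired libraries (-0.83 ± 0.38, adjusted p = 0.24 by edgeR). *Tfe3* had 74.7 to 99.4 CPM and 85.4 to 167 CPM, with overlap (-0.49 ± 0.20, adjusted p = 0.16 by edgeR), and *Mitf* had a median of 45.9 CPM in APP/PS1 mice, inside its range of 19.9 to 59.3 CPM in non-diseased mice (0.38 ± 0.26, adjusted p = 0.48 by edgeR). *Lgmn* had 2132 to 2839 CPM in APP/PS1 and 2942 to 3891 CPM in non-diseased mice, without overlap, and was not called either (-0.29 ± 0.13, adjusted p = 0.23 by edgeR). For *Tfeb* and *Lgmn* too, the lack of overlap was not set against the share of all genes with separate ranges.

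Genes of the same pathways that are no members were counted too. Of 22 other lysosomal hydrolases and activators tested in DAM, 2 were called higher (background 2.42%), *Galc*, the galactosylceramidase (adjusted p = 0.019 by edgeR), and *Plbd2* (1.12 ± 0.19), 7 passed the adjusted p alone, all higher (background 5.91%), and the median change was 0.32. Of 16 other lysosomal membrane proteins and transporters, 1 was called higher, the tetraspanin *Cd63* (1.11 ± 0.15), against the same backgrounds, while 3 were higher and 1 lower (*Cd164*, -0.63 ± 0.16) at the adjusted p alone. None of 11 genes of sorting and tethering (HOPS), 10 of Ragulator and Rag and 2 further V-ATPase subunits passed the adjusted p.

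Other measures of DAM differed along with these changes. The 8 DAM markers counted summed to 10586 to 19768 CPM in DAM of the APP/PS1 libraries and 3123 to 6955 CPM in DAM of the non-diseased ones, and *Cst7*, a marker of DAM, had 848 to 2785 CPM against 74.0 to 205 CPM. The 6 microglial markers summed to 15953 to 19897 CPM against 20070 to 24970 CPM, and the 7 BAM markers to at most 55.9 CPM in any library. DAM of the APP/PS1 libraries also had more UMIs per cell (medians of 6185 to 8019 against 4691 to 5397), a ribosomal percentage of 11.7 to 13.7 against 8.24 to 11.7, and 12.6% to 22.8% of cells with a doublet score over 0.5 against 2.70% to 11.9%. The part of these measures in the members' changes was not tested, except that without the cells over that doublet score 3 of 40 members were called, all higher (background 2.18% for higher genes). With the DAM of the annotation of all CD45+ cells (1416 cells in place of 901), 1 of 43 members was called, *Gusb* (1.06, background 0.856% for higher genes), and 3 passed the adjusted p alone, all higher (background 1.80%). Scaling by library size alone shifted the median of all genes from -0.03 to -0.20 and that of the members from 0.38 to 0.21, since it moves all genes alike, and left 1 member called, *Gusb* (1.56, background 1.61% for higher genes). The other 3 then had changes of 0.99 (*Glb1*), 0.95 (*Npc2*) and 0.87 (*Cd68*). In DAM of the 3-month pairs alone, 3 of 36 members were called, all higher (background 2.67% for higher genes), and in the 9-month pairs alone 3 of 43, all higher (background 1.84%).

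The effect of Nlrp3 was compared in 5 pairs of Nlrp3KO and Nlrp3WT libraries. No member was called in microglia (0 of 44, background 0.0242%, 1 with an unadjusted p under 0.05) or in DAM (0 of 42, background 0.121%, 3 with an unadjusted p under 0.05), by edgeR or by DESeq2. These backgrounds are for calls and not for the unadjusted p. Among members with at least 1000 UMIs in microglia, *Lamp1* had the largest change (0.53 ± 0.21, adjusted p = 0.90 by edgeR, higher in 5 of 5 pairs). *Atp6v1h*, the H subunit of the V1 sector, followed with 38.5 to 57.1 CPM in Nlrp3KO and 50.8 to 59.3 CPM in Nlrp3WT libraries (-0.12 ± 0.06), and *Manba*, the beta-mannosidase, with 26.9 to 40.9 CPM and 32.2 to 41.1 CPM (-0.09 ± 0.07). The groups overlapped for both.

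The value of *Lamp1* rested on the libraries that stood apart. It had 377 CPM in microglia of WT mice and 650 CPM in those of APP/PS1 mice at 9 months, and 1007 to 1237 CPM in the other 8 libraries. The same 2 libraries were lowest in DAM (369 and 715 CPM, against 936 to 1649 CPM), in BAMs (382 and 674 CPM, against 774 to 1036 CPM) and in T cells (62.7 and 59.6 CPM, against 96.5 to 295 CPM), so that the low level was seen in each of these cell sets. T cells also held 167 CPM of *Lgmn*, against 3940 CPM in HM, and RNA carried over between droplets was not estimated. Without both 9-month pairs the change in microglia was 0.09, and in DAM it was 0.27 in place of 0.58 ± 0.13 (adjusted p = 0.053 by edgeR).

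**Figure D5:**
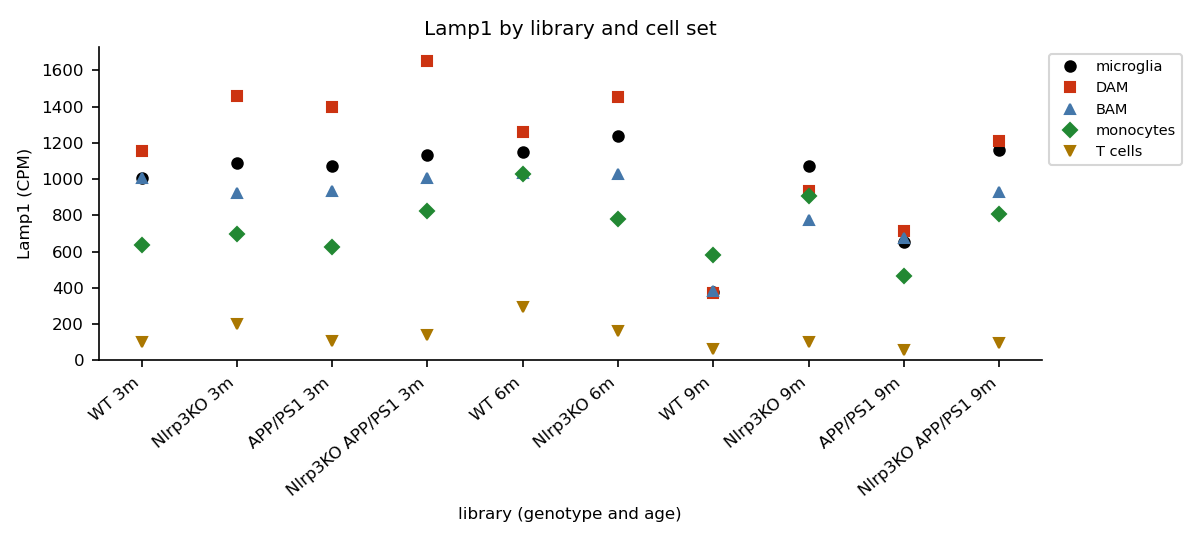
*Lamp1* in CPM is plotted for each of the 10 libraries in all microglia, DAM, BAMs, monocytes and T cells. In each of these sets, the 2 lowest points are those of the WT and APP/PS1 libraries at 9 months. Monocytes here join the labels Mono and Mono NC. Their WT point at 9 months (583 CPM) rests on 27 UMIs from 6 cells and lies close to the APP/PS1 point at 3 months (625 CPM).

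Age was compared between 9 and 3 months in 4 pairs of libraries of the same genotype, with batch changing along with age. Of 44 members, 1 was called (background 3.91%, and 3.28% for higher genes, of 12282 genes), *Atp6v0c*, which encodes the proton-carrying c ring of the V0 sector. It had 2.76 to 4.23 CPM in microglia at 3 months and 5.12 to 9.52 CPM at 9 months, without overlap (1.09 ± 0.20, adjusted p = 0.012 by edgeR), and it was no longer called without the Nlrp3KO, the APP/PS1 or the Nlrp3KO APP/PS1 pair (0.95, 1.16 and 0.96). It was picked for its call, and the share of all genes with separate ranges was not counted. The gene is uncertain, because 27.2% of the 50-base words in its last 500 bases also occur in the pseudogene *Atp6v0c-ps2*. At the adjusted p alone, 8 members passed, all higher (background 23.3%, and 12.7% for higher genes). With library size alone 6 passed, 3 of them higher (background 3447 of 12282 genes). With 1 pair left out 1 to 8 passed, 1 to 7 of them higher (background from 910 of 12315 to 2300 of 12239 genes). *Ppt1*, a thioesterase that removes palmitate from proteins, had 223 to 229 CPM at 3 months and 284 to 333 CPM at 9 months (0.52 ± 0.07, adjusted p = 0.0045 by edgeR). *Mcoln1*, the calcium channel of the lysosomal membrane, had at most 21.7 CPM at 3 months and 20.6 to 26.2 CPM at 9 months, with overlap (0.34 ± 0.09), and *Npc2* changed by 0.31 ± 0.07. The other 5 of the 8 members were subunits of the pump, *Atp6v0c*, *Atp6v0a1*, *Atp6v0e*, *Atp6v1e1* and *Atp6v1g1*. *Lamp1* did not pass (-0.44 ± 0.24, adjusted p = 0.22 by edgeR), and in the Nlrp3KO genotypes alone its change was 0.11.

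Whether the APP/PS1 effect differed between 9 and 3 months was tested as an interaction in microglia. The fit left few libraries to estimate the spread, so a lack of calls does not show that the effects were alike. No member was called by edgeR (0 of 44, background 0%, 0 of 12282 genes, of which 601 had an unadjusted p under 0.05), 4 members had an unadjusted p under 0.05, and DESeq2 called 6 genes and none of the members.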

How the data were processed

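CD45+ brain cells of 10 libraries were measured by droplet 3′ RNA sequencing. Per the labels, the authors aligned the reads to mm10 with Cell Ranger, and deposited raw UMI counts per gene and cell. The authors removed cells beyond 3 median absolute deviations and named clusters made with Seurat 4.3.1, Scater 1.22.0 and harmony 1.0. The deposited annotation also gives each cell a percentage of mitochondrial UMIs, a fraction of ribosomal UMIs and a doublet score from the authors. The 6897 cells of 2 condition names that match no sample were not used here. Cells were kept whatever their doublet score, and 3092 of 40547 microglia had a score over 0.5.

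Counts were summed per library and state or cell type and divided by all UMIs of those cells (CPM). 3′ counts are not scaled by length. Levels of different genes were set side by side for shares of a sum and for both d subunits, and were not tested against each other. Ratios between states were computed within libraries (prior count 0.5, at least 500 UMIs, 10 cells). Groups were compared with edgeR 4.0.16 (quasi-likelihood, filterByExpr, TMM) with pairs of libraries as a block, where a pair shares age and Nlrp3 genotype, age and transgene status, or genotype, and a call needs an adjusted p under 0.05 and a 2-fold change. limma 3.58.1 tested the DAM to HM ratios (prior count 2), and DESeq2 1.42.0, other scalings, filters, annotations and left-out libraries served as alternatives. The comparisons of APP/PS1, Nlrp3 and age share libraries. Values by library are given for members past 2-fold or called, for the 3 largest changes in microglia with APP/PS1, Nlrp3 and age, for the transcription factors and for both d subunits. For *Naglu*, *Scarb2*, *Tmem106b* and *Atp6v1c1*, past 2-fold lower in BAMs, the mean ratio and its SD are given instead. The fits were tested on simulated counts with large changes in genes over a minimum count and no effects of pair, age or batch. This does not cover smaller changes or genes with few UMIs. Intervals and limits from counts cover counting error only. Members, lists and comparisons were chosen with earlier results of these data known. R 4.3.3, Python 3.11.15, numpy 2.4.6, scipy 1.17.1, pandas 2.3.3 and matplotlib 3.10.9 were used.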

Additional observations from a re-analysis of the deposited data

Results flagged for a closer look

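*Lamp1* in microglia was far from the other libraries of its group in the WT library at 9 months (377 CPM, 6 non-diseased libraries) and in the APP/PS1 library at 9 months (650 CPM, 4 APP/PS1 libraries). *Gla* in DAM of Nlrp3KO APP/PS1 mice at 9 months (4.74 CPM) was far below the other 3 APP/PS1 libraries, from 7 UMIs. These 3 were found among 66 groups of values examined, and chance gives about 1 in 20.

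The APP/PS1 effect differed between DAM and HM by the limma test of the difference for *Gusb* (1.66 on the log2 scale), *Glb1* (1.27), *Npc2* (1.11) and *Cd68* (1.03), larger in DAM for each. That test shares its DAM counts with the fit in DAM and was added after the data were seen.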

How the results depend on the processing

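Scaling by library size alone, the annotation of all CD45+ cells in the fits, the BAM labels taken singly and the age, genotype or disease subsets were chosen after seeing the data. Members called in DAM of APP/PS1 numbered 4, with 12 at the adjusted p alone, 1 with library size alone, 1 with the annotation of all CD45+ cells and 3 to 4 with 1 pair left out. At the adjusted p alone, 6 to 12 passed with 1 pair left out and 7 by DESeq2. For the difference between DAM and HM they numbered 4, with 12 at the adjusted p alone and 2 with library size alone. With age, 1 was called, with 8 at the adjusted p alone and 0 to 1 with 1 pair left out. With library size alone 6 passed the adjusted p with age, 3 of them higher. *Lamp1* with age changed sign to 0.11 in the Nlrp3KO genotypes alone. The summed ratio of TM to HM was 0.088 without *Lgmn*, 0.0135 with the other annotation and 0.16 without ribosomal protein and mitochondrial genes, and that of BAMs to HM was -0.32 without *Lgmn*, -0.69 for BAM and -0.19 for BAM Lyve1. Members past 2-fold in DAM numbered 1, with 2 at a prior count of 2, 3 in APP/PS1 libraries alone, 0 in non-diseased libraries alone and 0 to 1 with 1 library left out, and in BAMs 8, with 9 at a prior count of 2, 5 in BAM Lyve1 alone and 7 to 8 with 1 library left out. The cause of these differences was not tested.

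Genes called in DAM of APP/PS1 numbered 182, with 482 at the adjusted p alone, 46 by DESeq2 and 77 of 7713 with the other annotation, in microglia 5, with 22 by DESeq2, with Nlrp3 in DAM 7, with 2 by DESeq2, and with age 480, with 2856 at the adjusted p alone. Without the pair block, the number of members called for the difference between DAM and HM stayed at 4. DAM had 24 to 253 cells per library, which limits *Gla*, *Tfeb* and other low genes.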
